A study of Mus musculus with 12 samples.

Results

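The 83 genes described here encode the proteins of the cytosolic ribosome, 51 of them in the large and 32 in the small subunit. They were chosen by name alone, as every protein-coding gene whose mouse symbol follows the Rpl, Rps, Rplp or Rpsa pattern, out of 35275 genes in the table. The RNA came from flow-sorted hematopoietic stem cells, which give rise to every blood lineage, of C57BL/6 mice, in 4 groups of 3 libraries. Thpo-/- mice, which lack the gene of the cytokine thrombopoietin, had been given Romiplostim, an agonist of the thrombopoietin receptor, for 10 days at a daily intravenous dose of 100 µg/kg (treated knockout). Thpo+/+ mice had received the same (treated wild type), and Thpo-/- and Thpo+/+ mice without the agonist made up the other two groups (untreated knockout and untreated wild type). The labels call the last pair untreated, while the treatment protocol names PBS for controls. Neither the age of the mice nor the surface markers of the sort are given in the sources used here, and the labels do not say that replicates were separate animals, so p-values measure only the spread between these libraries.

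Each ribosome joins a small subunit, which reads the mRNA, to a large subunit, which forms the peptide bond. Most of their proteins are needed in equal numbers, and most of their mRNAs begin with a C followed by a stretch of pyrimidines, the 5' terminal oligopyrimidine (5'TOP) element, through which mTOR signalling and the RNA-binding protein Larp1 control translation and storage of these mRNAs. Hematopoietic stem cells are known for a low rate of protein synthesis, and loss of single ribosomal proteins, among them RPS19 and RPS14 in humans, leads to failure of red cell production.

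The first bases of the mRNA carry this shared feature, so a few starts are shown. RefSeq promoter windows (GRCm38.p6) were matched for 63 of the 83 genes, with 75 windows in all. Each line gives 15 bases before the annotated start and 15 bases from it, on the strand of the gene, with capitals for the longest pyrimidine run that reaches within 10 bases of the start. Rps18, Rps6, Rpl35 and Rpl13 are shown because their levels passed the tests described here in both directions, Rps27 because it did not pass them, and Rpl5, Rps16, Rpl7l1 and Rpl3l because they have no long run.
Rps18 (chr17:33955651-33955680, minus strand): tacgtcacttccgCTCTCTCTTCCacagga
Rps6 (chr4:86857353-86857382, minus strand): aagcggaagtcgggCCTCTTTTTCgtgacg
Rpl35 (chr2:39005117-39005146, minus strand): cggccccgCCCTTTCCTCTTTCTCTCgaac
Rpl13 (chr8:123102335-123102364, plus strand): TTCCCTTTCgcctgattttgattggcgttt
Rps27 (chr3:90213634-90213663, minus strand): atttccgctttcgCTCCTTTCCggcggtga
Rpl5 (chr5:107900513-107900542, plus strand): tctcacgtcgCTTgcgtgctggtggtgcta
Rps16 (chr7:28350674-28350703, plus strand): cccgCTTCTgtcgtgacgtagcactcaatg
Rpl7l1 (chr17:46782642-46782671, minus strand): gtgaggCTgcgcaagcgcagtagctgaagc
Rpl3l (chr17:24727811-24727840, plus strand): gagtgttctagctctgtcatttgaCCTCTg

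The annotated start of Rps18, Rps6, Rpl35 and Rps27 is a C inside such a run, whereas in Rpl13 the run lies upstream of the annotated base. A C followed by at least 4 pyrimidines stood at the annotated start in 13 windows (17.3%), against 2.5% of 32851 windows of all genes. A run of at least 8 pyrimidines near the start was found in 30 windows (40.0%), against 13.7% of all windows. Windows of the mitochondrial ribosomal proteins, which serve a separate ribosome, held the first feature in 0.0% and the second in 12.2%. An annotated start can lie some bases from the base used in these cells, so no match says only that these letters are not in this window.

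Ribosomal protein mRNAs were among the most abundant in every library. Together the 83 genes held between 6.00% and 15.9% of the summed FPKM (fragments per kilobase of gene, scaled to library size, a value per length that can be compared between genes). Of the 83, 76 had at least 100 FPKM in every library and 37 averaged at least 1000 FPKM over all 12. Rps18, whose protein sits in the head of the small subunit (chromosome 17, 33951999 to 33956001, mm10), had the highest mean level at 3122 FPKM, followed by Rpl32 at 2843 and Rplp0, the base of the stalk that recruits elongation factors, at 2697 FPKM. At the low end Rpl7l1 averaged 119, Rpl12 84.5 and Rpl23a 70.4 FPKM. Rpl24 at 1.42, the muscle paralogue Rpl3l at 1.20, Rpl39l at 1.04 and Rpl10l at 0.005 FPKM were barely listed. The authors' assignment of reads that also match the 250 annotated ribosomal protein pseudogenes is not given in the sources used here, which makes the level of any single gene uncertain. The summed FPKM of those pseudogenes was as large as 0.277% to 0.363% of the members' own sum, depending on the library.

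The share of all FPKM held by the ribosomal proteins set the untreated knockout libraries apart from most others. The share was 15.9%, 9.27% and 13.1% in treated knockout replicates 1 to 3, 9.54%, 13.0% and 12.9% in treated wild type, 6.46%, 6.00% and 7.48% in untreated knockout, and 7.05%, 13.1% and 11.7% in untreated wild type. The group means were 12.8% ± 3.33, 11.8% ± 1.97, 6.65% ± 0.757 and 10.6% ± 3.17 in the same order (SD, n = 3 each). The untreated knockout libraries were thus all low, but untreated wild type replicate 1 lay between them, so the untreated groups overlapped, whereas the knockout groups did not. The summed FPKM of the small subunit was 0.774 to 0.829 times that of the large subunit in all 12 libraries, so that both subunits moved together from library to library.

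**Figure D1:**
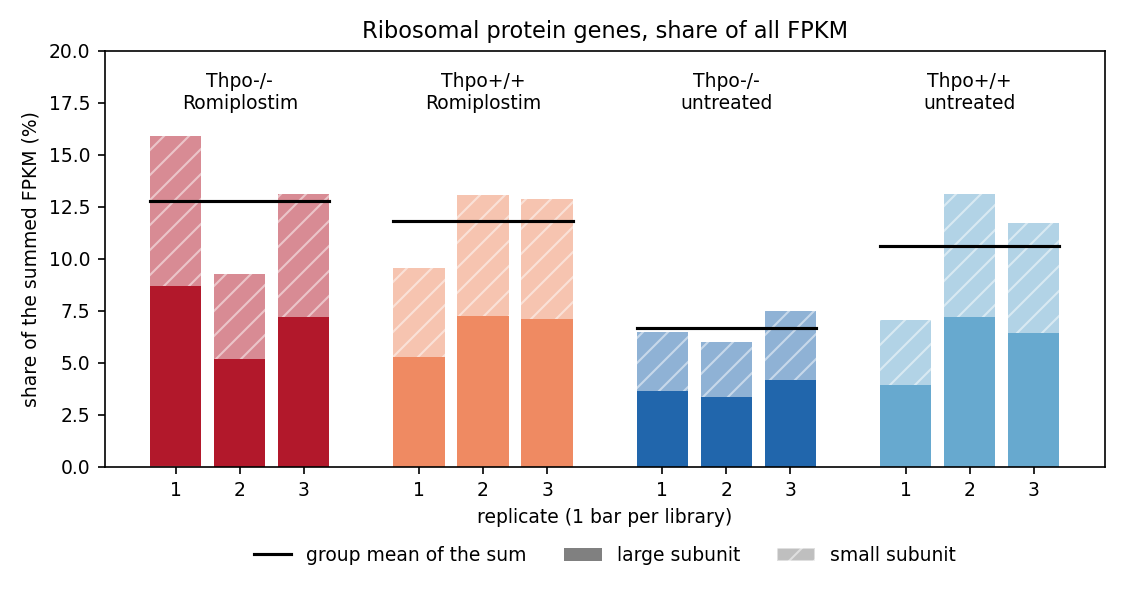
Share of the summed FPKM (%) held by ribosomal protein genes in each of the 12 libraries, 1 bar per library, stacked as large subunit (plain) and small subunit (hatched), with the group mean as a black line. The 3 untreated knockout libraries lie between 6.00% and 7.48%, while within each other group 1 library (7.05% to 9.54%) lies below the other two.

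Within groups the ribosomal protein genes moved together, and a single library often set the spread. Treated knockout replicate 2 was the lowest of its group for 78 of the 82 tested members (it was lowest for 19.8% of all tested genes), and replicate 1 was the highest of all 12 libraries for 72 members. Treated wild type replicate 1 was lowest in its group for 77 members (43.3% of all tested genes), as was untreated wild type replicate 1 for 77 (45.4%). Untreated knockout replicate 3 was highest in its group for 77 members (27.7%). Replicates differed more than 2-fold for 35 members in treated knockout (13.1% of all tested genes), 2 in treated wild type (1.88%), 2 in untreated knockout (7.20%) and 43 in untreated wild type (4.80%). The median SD of log2(FPKM + 1) over the members was 0.49 in treated knockout, 0.28 in treated wild type, 0.23 in untreated knockout and 0.54 in untreated wild type, while over all tested genes it was 0.25, 0.12, 0.17 and 0.19. The comparisons are also given without these libraries.

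The members with short coding sequences varied most between replicates. Over the 79 members with a mean of at least 10 FPKM, the SD of log2(FPKM + 1) within a group correlated with coding length (GENCODE M21) at Pearson's r = -0.79 in treated knockout, -0.62 in treated wild type, -0.64 in untreated knockout and -0.33 in untreated wild type. These correlations are across genes that share the same libraries and are a description. The members that varied in one group also varied in the others: the SDs of any 2 groups, which have no library in common, correlated at r = 0.62 to 0.88. Rps12, a small subunit protein with a coding length of 444 nt, was among the most variable, with 1219, 414 and 893 FPKM in treated knockout, 336, 696 and 707 in treated wild type, 248, 253 and 403 in untreated knockout, and 175, 816 and 672 FPKM in untreated wild type. Rpl4, with the longest coding sequence of the set (1257 nt), had 1739, 1345 and 1472 FPKM in treated knockout, 1332, 1289 and 1251 in treated wild type, 1088, 1028 and 1124 in untreated knockout, and 1032, 1318 and 1227 FPKM in untreated wild type. The low level in untreated wild type replicate 1 was not shared by other short genes: against the mean of 12 libraries its 82 members deviated by a median of -0.57 on the log2 scale, while 1744 other genes with a coding length up to 600 nt deviated by a median of 0.05.

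**Figure D2:**
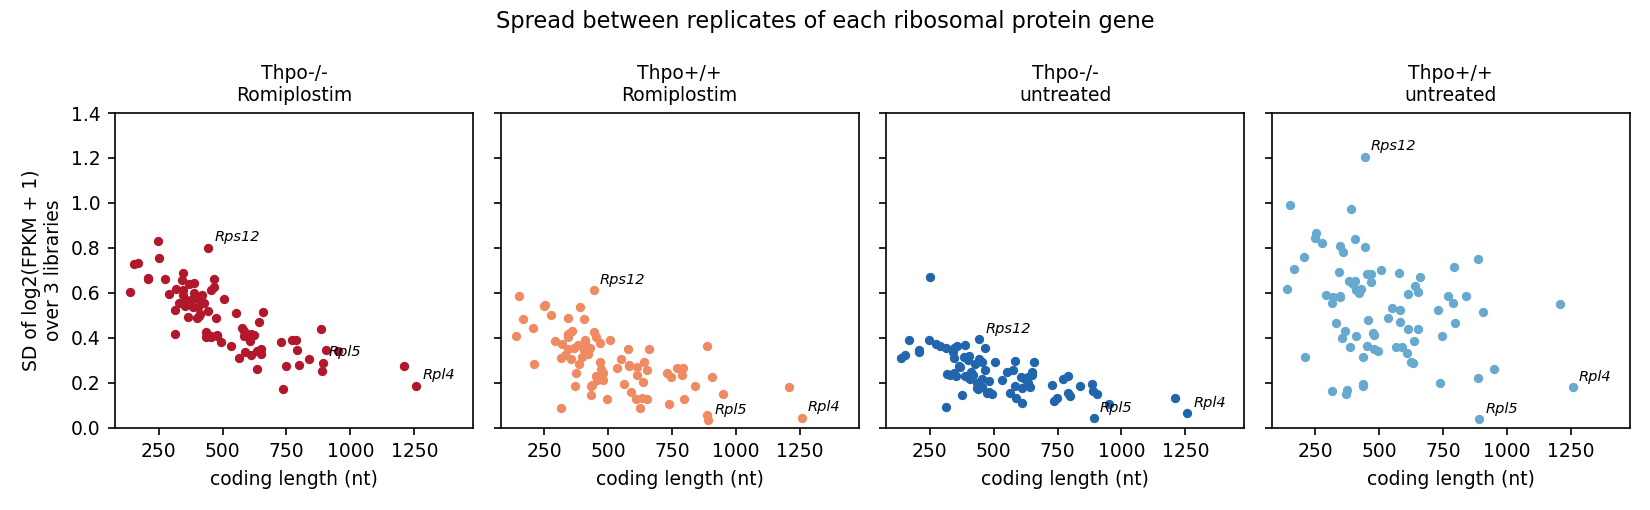
SD of log2(FPKM + 1) over the 3 libraries of each group (y axis) against coding length in nt (x axis), 1 point per ribosomal protein gene with a mean of at least 10 FPKM. Short genes lie higher in all 4 groups, with r between -0.79 and -0.33, and Rps12 lies above most genes of its length.

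Thpo itself, made mainly in the liver, was listed at 0 in all knockout libraries, at 0 to 0.0426 FPKM in treated wild type and at 0 to 0.0208 FPKM in untreated wild type, so its level does not check the genotype labels here. Levels of marker genes also differed between the groups. Over 18 stem cell markers the mean log2(FPKM + 1) was 4.74 to 5.66 in treated knockout, 5.66 to 5.84 in treated wild type, 4.22 to 4.69 in untreated knockout and 5.75 to 6.08 in untreated wild type libraries. Over 12 B cell markers it was 2.34 to 4.48, 1.11 to 1.28, 6.08 to 7.08 and 1.64 to 1.76 in the same order, and over 14 myeloid markers 4.89 to 5.69, 4.67 to 5.58, 7.44 to 7.97 and 4.73 to 5.27. Over 22 cell cycle genes it was 6.58 to 6.78, 6.34 to 6.59, 6.97 to 7.51 and 5.83 to 6.27. Over 12 erythroid markers it was 5.86 to 7.19, 3.07 to 3.72, 7.13 to 8.44 and 4.92 to 5.34. Over 10 T and NK markers it was 2.36 to 3.58, 1.81 to 2.07, 3.14 to 4.42 and 1.03 to 1.09. Treated knockout replicate 1, highest of all libraries for most members, was highest of its group in erythroid (7.19) and lowest in stem cell markers (4.74). Whether these go together was not tested. The Y-linked genes Ddx3y, Eif2s3y, Kdm5d and Uty were near 0 in all treated knockout libraries and expressed in all untreated knockout libraries, whereas each wild-type group held 1 library near 0. Each group was sequenced on a single run, which makes run and group inseparable. The summed FPKM ranged from 756971 to 869300 and the genes at 1 FPKM or more from 11262 to 12374 per library.

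Of 82 tested ribosomal protein genes, 26 were lower and 1 was higher in untreated knockout than in untreated wild-type cells, while 55 did not pass the test. The fit used log2(FPKM + 1) of 12823 genes with at least 1 FPKM in at least 3 libraries, which included all members but Rpl10l, and limma's moderated test with Benjamini-Hochberg adjustment over all tested genes (adjusted p under 0.05). Of the 82 members 31.7% fell and 1 rose, where 23% of all tested genes fell, 22.1% rose and 45.1% changed in either direction. The share of members that changed in either direction, 32.9%, was thus below that of all genes. Of the large subunit 17 of 50 fell and 1 rose, and of the small subunit 9 of 32 fell. The log2 fold change was below 0 for 81 of 82 members, with a median of -0.68, against a median of -0.03 over all tested genes. For 21 members every untreated knockout library lay below every untreated wild type library, a pattern seen in 29% of all tested genes, so the members' share, 25.6%, was below that of all genes. The count of members past the threshold was 14 with median-of-ratios scaling, 14 without a filter on low values and 15 with the level of Y-linked genes as a covariate. In bulk RNA, fewer cells of a type and less RNA per cell cannot be told apart.

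In 8 of 32 small subunit genes all untreated knockout libraries lay below all untreated wild type libraries. The pattern was no more frequent than among all tested genes (29%), so a lack of overlap does not set these genes apart. Rps14, a platform protein whose loss in humans underlies the anemia of the 5q deletion, had 1214, 1204 and 1503 FPKM in untreated knockout and 2065, 3359 and 2968 in untreated wild type. The groups did not overlap, with a log2 fold change of -1.08 ± 0.24 (SE) and adjusted p = 0.00344. Rps19, the protein most often altered in human Diamond-Blackfan anemia (chromosome 7, 24884371 to 24889806), had 1001, 938 and 1261 FPKM in untreated knockout and 1488, 2468 and 2231 in untreated wild type (log2 fold change -0.93 ± 0.23, adjusted p = 0.00675). Rps16 had 681, 634 and 803 FPKM against 1046, 1360 and 1251 (-0.79 ± 0.20, adjusted p = 0.00859), again without overlap. Rps6, the substrate of the S6 kinases downstream of mTOR, had 1127, 1036 and 1245 FPKM against 1366, 2321 and 2126 (-0.74 ± 0.22, adjusted p = 0.0168). Rps25, Rps18, Rps15, Rps28 and Rps3, which lines the mRNA entry channel, were the other small subunit genes that fell.

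Among large subunit proteins Rpl13 (chromosome 8, 123102350 to 123105244) had 1432, 1281 and 1684 FPKM in untreated knockout and 2139, 3139 and 2884 in untreated wild type, a log2 fold change of -0.88 ± 0.19 with adjusted p = 0.0033. Rpl35 had 68.9, 67.4 and 94.4 FPKM against 134, 163 and 158 (adjusted p = 0.00977). Rpl11, which with Rpl5 and 5S rRNA forms the particle that can bind Mdm2 and stabilise p53, fell by 0.67 on the log2 scale (adjusted p = 0.0499), close to the limit. Rpl38, known from mice for its role in translation of Hox mRNAs, fell by 0.81 (adjusted p = 0.0478).

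Other proteins of known roles did not pass. Of the stalk, Rplp0 stood at a log2 fold change of -0.41 with adjusted p = 0.111, Rplp1 at -0.96 (adjusted p = 0.0607) and Rplp2 at -0.71 (adjusted p = 0.116). Rpl10, which joins the large subunit last, had -0.28 (adjusted p = 0.481) and Rpsa, the protein also known as the laminin receptor, -0.42 (adjusted p = 0.332). Rps27a, made as a fusion with ubiquitin, had -0.73 (adjusted p = 0.131) and Rpl41, the smallest ribosomal protein, -0.69 (adjusted p = 0.139). In Rplp0 the groups did not overlap, and in the other six they did.

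The number of genes that passed moved with single libraries. Without untreated wild type replicate 1, 68 members fell and 1 rose, with a median log2 fold change of -0.99. Without untreated wild type replicate 2 or 3 the count of members past the threshold was 9 each, and without untreated knockout replicate 1, 2 or 3 it was 12, 10 and 28. The sign of the median was negative in each case (-0.99 to -0.48). Of markers of other cells, all 11 tested B cell, 12 of 14 myeloid and 9 of 12 erythroid markers rose in this comparison. All 12 tested stromal, endothelial and macrophage, all 9 tested T and NK and 5 of 7 lymphoid-primed markers rose too. Of 8 mast cell and basophil markers 7 rose and 1 fell. The megakaryocyte list went the other way, with 0 of 8 higher and 3 lower, and 13 of 18 stem cell markers fell. The summed level of the B cell list was 1828 to 4354 FPKM in untreated knockout and 88.2 to 98.7 FPKM in untreated wild type. Of its genes 0 were at 0 in each untreated knockout library, and 0 to 1 in the untreated wild type libraries. Untreated knockout replicate 3 and treated knockout replicate 2 were left out for their markers of other cells, although neither was highest in every list. Untreated knockout replicate 2 was higher in B cell markers (7.08 against 6.83), and treated knockout replicate 2 was lowest of its group in erythroid markers (5.86). Treated knockout replicate 2 was also highest of its group in stem cell markers (5.66, against 4.74 and 5.40). In myeloid markers it was below treated knockout replicate 3 (5.59 against 5.69). The 2 libraries were also highest (77 members) and lowest (78 members) of their groups, so leaving them out by itself widens the difference between the knockout groups. Without them, 39 members fell and 0 rose, with a median of -0.81.

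**Figure D3:**
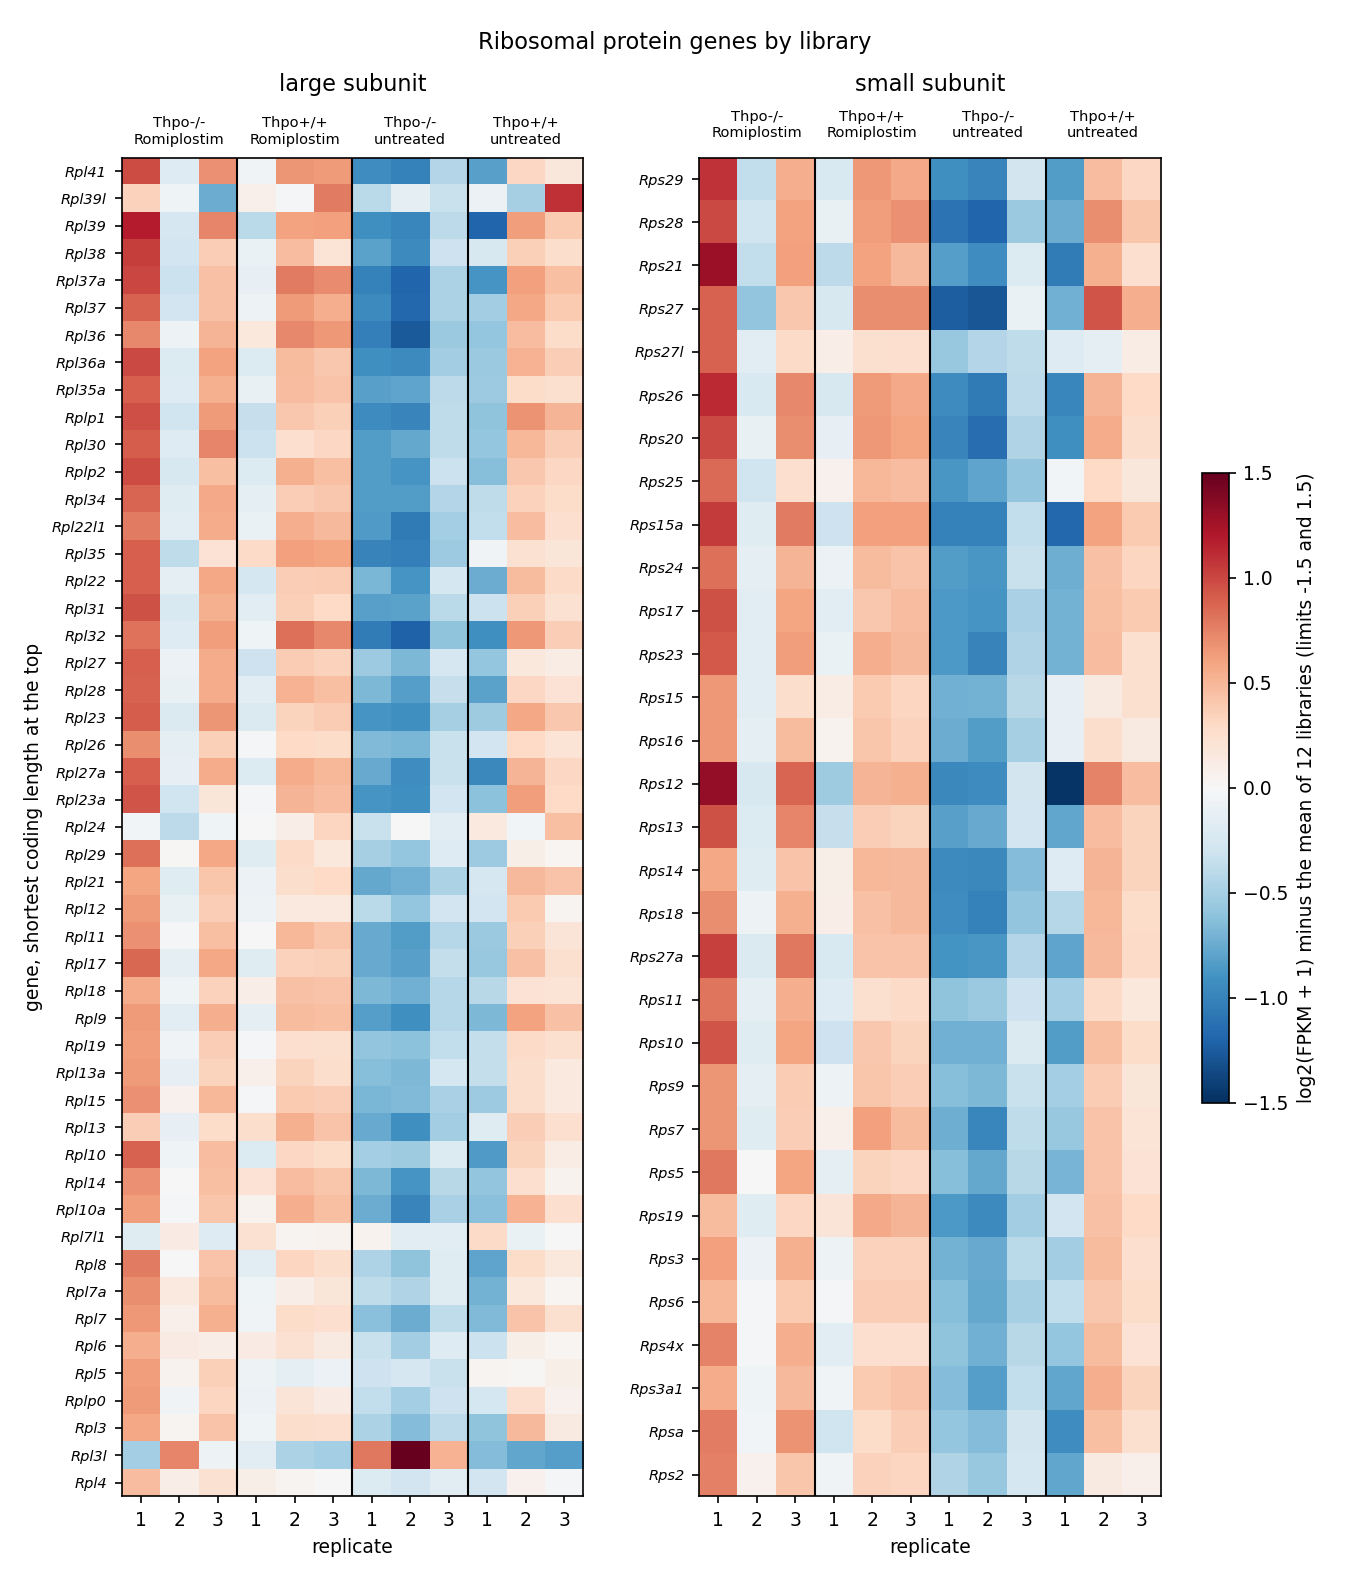
Log2(FPKM + 1) minus its mean over 12 libraries (color, limited to -1.5 to 1.5) for ribosomal protein genes in rows (all tested members but 2), ordered by coding length within each subunit, and the 12 libraries in columns by group. Nearly every row is low in the 3 untreated knockout libraries and in untreated wild type replicate 1 and high in treated knockout replicate 1, while Rpl3l runs against the rest and Rpl7l1 varies little. Rpl24 also varies little on this scale, but its level is 0.81 to 2.25 FPKM, where log2(FPKM + 1) understates changes.

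With Romiplostim, ribosomal protein genes rose in knockout cells. Of the 82 members 70 were higher in treated than in untreated knockout cells (85.4%) and 1 was lower, where 10.7% of all tested genes rose and 29.6% changed in either direction. This held for 43 of 50 large subunit and 27 of 32 small subunit genes. The median log2 fold change was 1.04 in both subunits, against -0.09 over all tested genes. For 74 members every treated knockout library lay above every untreated knockout library, as was the case for 15.6% of all tested genes.

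Rps16 had the smallest p, with 1788, 1038 and 1575 FPKM in treated knockout and 681, 634 and 803 in untreated knockout, a log2 fold change of 1.02 ± 0.20 and adjusted p = 0.00383. Rps14 had 3528, 2084 and 3177 FPKM in treated knockout and 1214, 1204 and 1503 in untreated knockout (1.14 ± 0.24, adjusted p = 0.00494). Rps18 had 4709, 2749 and 4219 FPKM against 1525, 1443 and 1920 (1.23 ± 0.27, adjusted p = 0.0057). In each of these the lowest treated library, replicate 2, still exceeded the highest untreated library, replicate 3. Rps20 had the highest log2 fold change of all members, 1.39 ± 0.39, with 618, 289 and 506 FPKM against 155, 140 and 226 (adjusted p = 0.0196).

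Of the large subunit, Rpl13 had 3133, 2220 and 2922 FPKM in treated knockout and 1432, 1281 and 1684 in untreated knockout (log2 fold change 0.91 ± 0.19, adjusted p = 0.00553). Rpl15 had 1524, 984 and 1336 FPKM against 586, 594 and 673 (1.03 ± 0.23, adjusted p = 0.00647), and Rpl14 had 1725, 1071 and 1461 against 668, 581 and 804 (1.04 ± 0.23, adjusted p = 0.00719). Both partners of 5S rRNA rose: Rpl5 by 0.65 ± 0.14 (adjusted p = 0.00647) and Rpl11 by 1.05 ± 0.26 (adjusted p = 0.0107). All 3 stalk genes rose as well, Rplp0 by 0.70 (adjusted p = 0.0209). Rplp1 had 2268, 941 and 1809 FPKM in treated and 604, 585 and 891 in untreated knockout (adjusted p = 0.0351). Rplp2 had 1752, 753 and 1214 FPKM in treated and 495, 480 and 707 in untreated knockout (adjusted p = 0.0354), so that in both the lowest treated library exceeded the highest untreated one only narrowly. Rps19, Rps6 and Rps3 rose by 0.98, 0.92 and 0.98 on the log2 scale.

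Of the 11 members that did not pass, 8 had log2 fold changes within the range of those that rose (0.48 to 1.39). Rps12 stood at 1.38 (adjusted p = 0.0799), Rpl39, which lines the exit tunnel, at 1.31 (adjusted p = 0.0588), Rps21 at 1.17, Rps29 at 1.15, Rps27 at 1.10, Rps10 at 1.01, Rpl23a at 0.97 and Rpl10 at 0.84 (adjusted p = 0.0586). The others were Rpl24, Rpl7l1 and Rpl39l, with -0.00, 0.00 and 0.14. Of these, Rpl24 (mean 1.42 FPKM) and Rpl39l (1.04 FPKM) lay at levels where log2(FPKM + 1) understates changes. Leaving out treated knockout replicate 1 or 3 lowered the count of members past the threshold to 31 and 22, and leaving out untreated knockout replicate 1 or 2 to 21 and 22, with medians of at least 0.83. Without treated knockout replicate 2 the count was 79.

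Over the same comparison 11 of 11 B cell, 12 of 14 myeloid, all 12 tested stromal, endothelial and macrophage and 5 of 12 erythroid markers fell and 11 of 18 stem cell markers rose. Other lists were mixed. Of 9 tested T and NK markers 1 rose and 1 fell, and of 8 megakaryocyte markers 3 rose and 1 fell. Of 8 mast cell and basophil markers 1 rose and 4 fell, and of 7 lymphoid-primed markers 0 rose and 4 fell. When the same libraries were left out as above, for their markers of other cells, 78 members rose and 0 fell, with a median of 1.39. The treated library left out was, however, highest of its group in stem cell markers. For most members the 2 libraries left out were the lowest treated and the highest untreated knockout library, so leaving them out widens this difference by itself. The treated knockout libraries had Y-linked levels of 0.01 to 0.05 and the untreated knockout libraries of 3.02 to 3.99 (mean log2), so treatment and this difference cannot be told apart. With the Y-linked level as a covariate 0 members passed, at a median log2 fold change of 1.0.

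**Figure D4:**
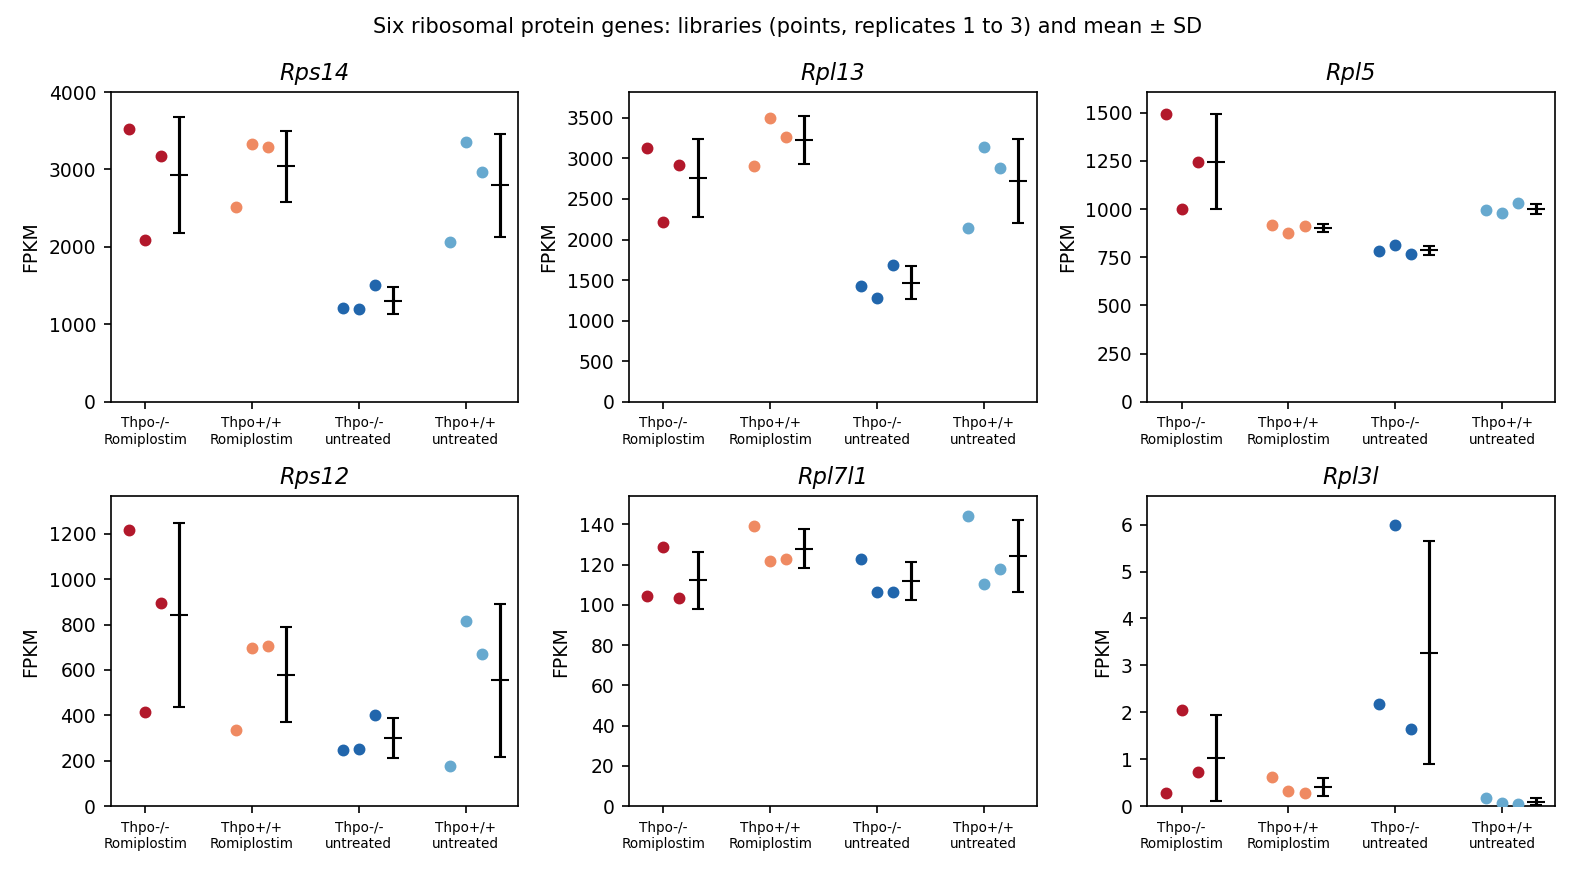
FPKM of Rps14, Rpl13, Rpl5, Rps12, Rpl7l1 and Rpl3l by group, with points for replicates 1 to 3 from left to right and bars for the mean ± SD of 3 libraries. Rps14 and Rpl13 are lowest in the 3 untreated knockout libraries, Rpl5 has a narrow range in all groups but treated knockout, Rps12 spreads widely in all groups but untreated knockout, Rpl7l1 stays between 104 and 144 FPKM, and Rpl3l has its highest mean in untreated knockout.

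In wild-type cells no ribosomal protein gene passed the threshold with Romiplostim when libraries were not paired. Of the 82 members 0 passed with limma, where 1.84% of all tested genes did (0.866% higher and 0.975% lower), and 0 had an unadjusted p under 0.05. The log2 fold change was above 0 for 77 members, with a median of 0.22, against -0.04 over all tested genes. In 3 members all treated libraries lay above all untreated ones (10.3% of all tested genes) and in 1, Rpl5, below (16.5%). The smallest adjusted p was 0.435, for Rpl14, with 1247, 1472 and 1430 FPKM in treated and 711, 1277 and 1110 FPKM in untreated wild type. Rpl41 had the highest log2 fold change, 0.52 ± 0.36, and Rpl5 the lowest, -0.15 ± 0.14. Without untreated wild type replicate 1 the median was -0.08, so its sign rested on that library. Deviations from the group means correlated at 0.403, 0.123 and 0.383 in same-number pairs 1 to 3 of the wild-type groups. Treated replicate 3 and untreated replicate 2 also reached 0.123, and a pair of unlike numbers across genotypes 0.324. Y-linked levels (mean log2) differed within pair 1 (0.03 treated, 3.85 untreated) and pair 2 (3.82 and 0.17). Whether the numbers mark pairs was not tested. With the replicate number as a block in a fit of the 6 wild-type libraries, chosen after seeing the data, 1 member rose, where 6.74% of all tested genes changed. It was Rpl35 (0.38, limma adjusted p = 0.0411). Rpl35 had 169, 212.5 and 209.8 FPKM in treated and 134, 163 and 158 FPKM in untreated wild type, without overlap. In 41 members the treated library was the higher one in all 3 pairs (20.6% of all tested genes).

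Under Romiplostim no ribosomal protein gene passed between the genotypes. Between treated knockout and treated wild type 0 of 82 members passed with limma, where 1.37% of all tested genes did (0.632% higher and 0.741% lower). A single member, Rpl5, had an unadjusted p under 0.05. In 2 members all knockout libraries lay above all wild type libraries (9.94% of all tested genes), and in 1 below (15.2%). The median log2 fold change was 0.15, against -0.07 over all tested genes, and the extremes were 0.48 for Rps12 and -0.43 for Rpl39l. The median was -0.06 without treated knockout replicate 1 and -0.03 without treated wild type replicate 1. Between treated knockout and untreated wild type 0 members passed as well (10.4% of all tested genes did, 2.93% higher and 7.52% lower), with 6 at an unadjusted p under 0.05, 3 whose treated knockout libraries all lay higher (8.98% of all tested genes) and 0 whose libraries all lay lower (18%). The median was 0.35 and the smallest adjusted p 0.0904, for Rpl7a. Without treated knockout replicate 2, 1 member passed against treated wild type and 5 against untreated wild type. A p that misses the threshold does not show that the levels were the same.

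**Figure D5:**
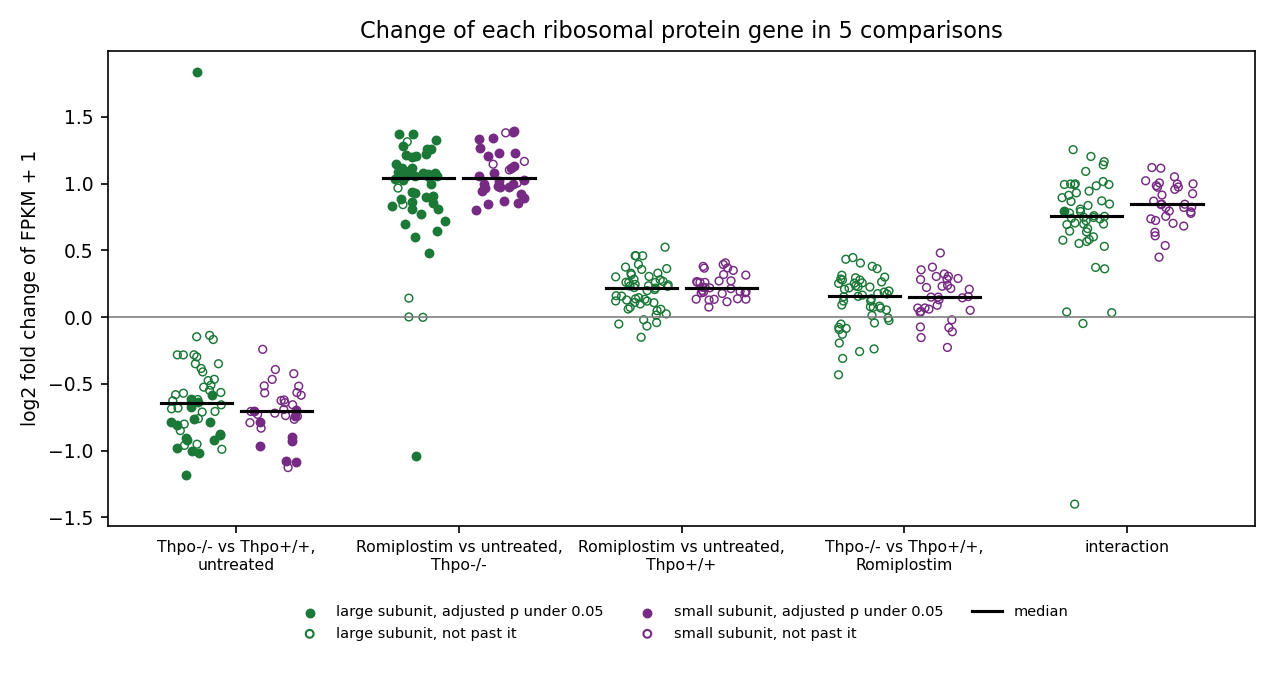
Log2 fold change of FPKM + 1 for each tested ribosomal protein gene in 5 comparisons, large subunit in green and small subunit in purple, filled where the adjusted p was under 0.05, with black lines at the medians. Untreated knockout against untreated wild type has a median of -0.68 with 27 filled points, Romiplostim in knockout a median of 1.04 with 71, and the interaction has 1 filled point, Rpl5.

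The effect of Romiplostim was compared between genotypes by an interaction term, the log2 fold change in knockout minus that in wild type. It was above 0 for 80 of 82 members, with a median of 0.80, against -0.05 over all tested genes, but 1 member passed the threshold (1.22%), where 15.6% of all tested genes did (5.53% above and 10% below 0). At an unadjusted p under 0.05 there were 29 members. The called gene was Rpl5 (chromosome 5, 107900502 to 107909005), with an interaction of 0.795 ± 0.20 and adjusted p = 0.0228. Rpl5 had 1494, 1000 and 1242 FPKM in treated knockout, 919, 877 and 910 in treated wild type, 781, 812 and 764 in untreated knockout, and 995, 978 and 1030 FPKM in untreated wild type. Its replicates lay close together in 3 of the 4 groups. It was lower in all untreated knockout than in all untreated wild type libraries (29% of all tested genes were). It was higher in all treated knockout than in all treated wild type libraries (9.94% of all tested genes were). The highest interaction among the members was that of Rplp1, at 1.26, and the lowest that of Rpl3l, at -1.40 (adjusted p = 0.0814). Without treated knockout replicate 2 or without untreated wild type replicate 1, 25 members passed, and with array weights, which give less weight to libraries that stand apart, 79 passed.

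Of the genes named as paralogues of other ribosomal proteins, Rpl3l, a striated muscle form of Rpl3, was the single member that rose in untreated knockout, with 2.18, 5.99 and 1.64 FPKM against 0.170, 0.0682 and 0.0343 FPKM in untreated wild type (log2 fold change of FPKM + 1 1.83 ± 0.36, adjusted p = 0.00156). It was also the single member that fell with Romiplostim in knockout, to 0.288, 2.05 and 0.731 FPKM (-1.04 ± 0.36, adjusted p = 0.0466), although here the groups overlapped. These are low levels, and Rpl3 itself had 955, 844 and 1010 FPKM in untreated knockout. Rpl7l1 had 105, 129 and 104 FPKM in treated knockout, 139, 122 and 123 in treated wild type, 123, 106 and 106 in untreated knockout, and 144, 111 and 118 FPKM in untreated wild type. Its mean was 112 FPKM in both knockout groups, where that of its partner Rpl7 was 1515 in treated and 752 FPKM in untreated knockout. The ratio of Rpl7l1 to Rpl7 was 0.0776 ± 0.0276 in treated knockout and 0.150 ± 0.0242 in untreated knockout (SD, n = 3 each). It was 0.104 ± 0.0222 in treated and 0.123 ± 0.0719 in untreated wild type, whose range of 0.0732 to 0.205 overlapped both knockout groups.

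Rpl22l1 and Rpl22, of which Rpl22 is known in mice for its role in T cell development, both lay among the abundant genes. Rpl22l1 had 185, 160 and 233 FPKM in untreated knockout and 258, 459 and 397 in untreated wild type and fell (-0.92, adjusted p = 0.0196), whereas Rpl22 had 129, 112 and 173 against 124, 289 and 254 (-0.62, adjusted p = 0.159). The ratio of Rpl22l1 to Rpl22 was 1.47 to 1.59 in treated knockout, 1.73 to 1.81 in treated wild type, 1.35 to 1.43 in untreated knockout and 1.56 to 2.08 in untreated wild type. It was lower in all treated knockout than in all treated wild type libraries, and in all untreated knockout than in all untreated wild type libraries. The ranges of treated knockout and untreated wild type overlapped. Rps27l, known as a p53 target, and Rps27 had a ratio of 2.37 ± 0.505, 1.97 ± 0.671, 3.04 ± 1.11 and 1.92 ± 1.08 in the same order of groups, with overlap between all of them. Rpl10l had a value above 0 in 1 library and Rpl39l was at or under 3.09 FPKM in all.

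The changes of short and long members differed in size. Across 79 members, the log2 fold change of untreated knockout against untreated wild type correlated with coding length at r = 0.56, and that of treated against untreated knockout at r = -0.63, descriptions across genes measured in the same libraries. The medians by length are over all 82 tested members, those under 10 FPKM included. Members with at most 300 nt had a median of -0.76 in the first and 1.19 in the second comparison, and the 5 members over 900 nt had -0.24 and 0.70. The long ones included Rpl3l (mean 1.20 FPKM), which changed in the opposite direction (1.83 and -1.04), and the short ones Rpl39l (1.04 FPKM). Of 1744 other genes with at most 600 nt, 34.5% fell in untreated knockout, with a median of -0.21, and 27.8% rose with Romiplostim in knockout, with a median of 0.18. The 56 members of that length had medians of -0.72 and 1.09. By the start sequence the members differed little: the 29 with a long pyrimidine run had medians of -0.69 and 1.06, and the 33 tested members without one -0.63 and 0.98.

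Proteins of the ribosome that carry other names, and other translation genes known to have 5'TOP starts, were counted apart. Of all tested genes, for scale, 22.1% rose and 23% fell in untreated knockout against untreated wild type (median -0.03). With Romiplostim in knockout 10.7% of all tested genes rose and 18.9% fell (median -0.09). Of 4 such ribosomal proteins 0 passed in untreated knockout against untreated wild type (median -0.21), and 2 rose with Romiplostim in knockout (median 0.60). Fau, the fusion precursor of the small subunit protein eS30, had 852, 428 and 639 FPKM in treated knockout, 461, 704 and 657 in treated wild type, 334, 339 and 503 in untreated knockout, and 314, 651 and 585 FPKM in untreated wild type, and passed in neither comparison. Rack1, a scaffold on the small subunit, had 1087, 701 and 871 FPKM in treated knockout and 630, 598 and 604 in untreated knockout and rose (0.52 ± 0.15, adjusted p = 0.0233). Rpl36al rose too (0.72 ± 0.23, adjusted p = 0.0327). Of 20 other genes of translation with 5'TOP starts, 1 rose and 4 fell in untreated knockout against untreated wild type (median -0.09), and their share of falls, 20%, was near that of all genes. With Romiplostim in knockout 7 rose (35%) and 0 fell (median 0.44). Those that rose with Romiplostim included the nucleolar chaperone Npm1, with 2219 ± 484 FPKM in treated and 1245 ± 82.4 in untreated knockout, Naca and Eif3e. Of the elongation factor genes, Eef1b2 fell in untreated knockout, to 255 ± 21.1 FPKM, against 407 ± 108 in untreated wild type (-0.64 ± 0.21, adjusted p = 0.0276).

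Ribosome biogenesis genes, initiation factors and regulators of ribosomal protein genes had more rises than falls in untreated knockout. Falls made up 2.7%, 4.0% and 4.17% of these lists, where 23% of all tested genes fell and 22.1% rose. Of 37 ribosome biogenesis genes, 10 rose (27%) and 1 fell (2.7%) in untreated knockout against untreated wild type (median 0.10), so the share of rises was near the 22.1% of all tested genes. With Romiplostim in knockout 2 rose and 2 fell (5.41% each, median -0.04), both below the shares of all genes. The gene that fell, Nop10, part of the H/ACA particle that modifies rRNA, had 315 ± 12.3 FPKM in untreated knockout and 616 ± 75.7 in untreated wild type, and rose with Romiplostim (0.91 ± 0.19, adjusted p = 0.00509). Bysl, needed for the small subunit, had 22.3 ± 3.30 FPKM in untreated knockout and 10.8 ± 1.62 in untreated wild type (0.98, adjusted p = 0.000872). Of 25 initiation factors 7 rose (28%) and 1 fell in untreated knockout (median 0.22), and 2 rose (8%) and 1 fell with Romiplostim (median -0.09). Of 24 regulators 5 rose in untreated knockout (20.8%, again near the share of all genes) and 1 fell (median 0.15), and with Romiplostim in knockout 0 rose and 3 fell (12.5%, median -0.16). Those that rose in untreated knockout included Gabpa, a subunit of an ETS factor (0.79 ± 0.12, adjusted p = 0.000384), and Rptor, a part of mTOR complex 1 (1.27 ± 0.26, adjusted p = 0.00237). Mycn fell, with 22.4 ± 8.21 FPKM in untreated knockout and 108 ± 33.4 in untreated wild type (-2.24 ± 0.38, adjusted p = 0.000623). Of 12 tested p53 targets 4 rose (33.3%) and 0 fell in untreated knockout (median 0.47), with Mdm2 at 41.8 ± 2.82 FPKM against 29.9 ± 3.37 (adjusted p = 0.0156), and with Romiplostim 1 rose and 3 fell (25%, median -0.48).

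Of 76 tested mitochondrial ribosomal proteins, 3 rose (3.95%, against 22.1% of all tested genes) and 19 fell (25%, near the 23% of all tested genes) in untreated knockout against untreated wild type. The median was -0.10, against -0.03 over all tested genes. With Romiplostim in knockout 25 rose (32.9%, against 10.7%) and 0 fell (against 18.9%), with a median of 0.27, against -0.09. Mrpl14, which had the smallest p in the first comparison, had 95.4 ± 2.88 FPKM in untreated knockout and 160 ± 11.3 in untreated wild type (-0.73 ± 0.10, adjusted p = 0.000188), and rose with Romiplostim to 147 ± 12.2 FPKM in treated knockout.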

How the data were processed

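The deposited table holds FPKM values calculated by the authors for 12 libraries. Per the submitters' processing notes, TopHat2, Cufflinks 2.2.1 and the build mm10 were used, in roles the notes do not give. The annotation release and gene lengths are not given in the sources used here. The SMARTer cDNA kit, named in the labels' protocols, does not mark strand, so overlapping antisense RNA cannot be told apart. FPKM are relative to all RNA of a library, so a gene class that takes a larger share lowers the values of others. Symbols and coding lengths came from GENCODE M21 (34490 of 35275 identifiers matched), and start sequences from RefSeq. No 2 library columns were identical. No counting interval is given, because the table holds no counts.

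Values were converted to log2(FPKM + 1), which understates changes of low genes. Genes with at least 1 FPKM in at least 3 libraries (12823) were fitted with limma 3.58.1 (R 4.3.3) as 4 group means over all libraries, with an intensity trend; tests were two-sided and Benjamini-Hochberg adjusted within each contrast. The script was tested on simulated data. An exact permutation test of 3 against 3 libraries cannot go below p = 0.1. Members, lists, contrasts and named genes (smallest p and extremes per subunit, and fixed names) were chosen with earlier results of these data known, so no set test was run. Gene lists are described by counts and medians beside those of all tested genes. The fold of a paralogue over its partner is a ratio of FPKM. Replicate numbers come from the labels, which do not say what they mark. Deviations from the group means correlated above 0.1 in all 3 same-number pairs of treated and untreated wild type (0.123 to 0.403), and in 6 of 18 such pairs over all groups, these included, so a paired fit is given for that comparison. Pairs of unlike numbers from different groups reached 0.324, and treated wild type replicate 3 with untreated wild type replicate 2 reached 0.123. Alternatives changed the pseudocount, filter, scaling, trend, weights, libraries and covariates. Values of 3 genes are not reported here by name; they remain in all fits and counts.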

Additional observations from a re-analysis of the deposited data

Results flagged for a closer look

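The effect of Romiplostim on Rpl5, a large subunit protein that binds 5S rRNA, differed between genotypes by a test of the difference itself. The interaction was 0.795 ± 0.20 on the log2 scale (limma, adjusted p = 0.0228), from a log2 fold change of 0.65 in knockout and -0.15 in wild type. That value was near the median interaction of all members, 0.80, while the replicates of Rpl5 lay close together in 3 of the 4 groups. Rpl5 was higher in all 3 treated than in all 3 untreated knockout libraries (15.6% of all tested genes were). Rpl5 was also lower in all 3 treated than in all 3 untreated wild type libraries (16.5% of all tested genes were). It passed the threshold in 15 of 24 alternatives, with values between 0.40 and 0.94 and adjusted p-values between 0.000254 and 0.129. Without treated knockout replicate 3, treated wild type replicate 2 or 3, untreated knockout replicate 1 or untreated wild type replicate 3 it did not pass, at values of 0.77 to 0.80. It also missed the threshold with no filter, median-of-ratios scaling, quantile normalization or the Y-linked covariate (0.81, adjusted p = 0.103).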

How the results depend on the processing

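No called result changed sign under the alternatives run. The numbers of members past the threshold were 27 for untreated knockout against untreated wild type, 71 for treated against untreated knockout, 1 for the interaction and 0 for the other three. With a pseudocount of 0.1, treated knockout against untreated wild type had 1 and the interaction 2. Without a filter, untreated knockout against wild type had 14, treated against untreated knockout 40 and the interaction 0. Median-of-ratios scaling gave 14 in untreated knockout against wild type and 0 in the interaction, and quantile normalization 45 in treated against untreated knockout. In that comparison rises made up 36.3% of all called genes, but 47.6% with median-of-ratios scaling, 58.2% with quantile normalization and 24.5% with TPM scaling, and quantile normalization and TPM scaling placed the median of all genes at 0.07 and -0.19. For treated knockout against untreated wild type that share was 28.1%, but 48.8% with median-of-ratios scaling, and for the interaction 35.5%, but 55.5% with quantile normalization. With array weights the counts were 79 for untreated knockout against wild type, 1 for Romiplostim in wild type, 5 between the treated groups, 9 for treated knockout against untreated wild type and 79 for the interaction. Replicate 3 of untreated and replicate 2 of treated knockout were also left out, for their markers of other cells, although the latter was highest of its group in stem cell markers. For most members the 2 libraries were the highest and the lowest of their groups, so leaving them out by itself widens the difference between the knockout groups. Then 39 members passed for untreated knockout against wild type (median -0.81) and 78 for treated against untreated knockout (median 1.39). There were 1 between the treated groups, 5 for treated knockout against untreated wild type and 25 for the interaction, whose median was 1.20. With the Y-linked covariate 15, 0 and 0 members passed for untreated knockout against wild type, treated against untreated knockout and the interaction, with medians of -0.67, 1.0 and 0.77. Leaving out 1 library at a time gave 9 to 69 for untreated knockout against wild type, 21 to 79 for treated against untreated knockout, 0 to 1 between the treated groups, 0 to 5 for treated knockout against untreated wild type and 0 to 25 for the interaction. The cause of these shifts was not tested. With a replicate block over all 12 libraries the counts were 23, 70 and 1 for the comparisons that had calls. With a replicate block in the wild-type libraries alone, added after seeing the data, 1 member rose with Romiplostim in wild type; the median, 0.22, was the same. The block changed no other count by more than 1.5 times. FPKM carry no counts, so counting error was not given.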

Other observations

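The 250 ribosomal protein pseudogenes, whose sequences resemble the members, summed to 271 to 414 FPKM in treated knockout, 276 to 371 in treated wild type, 157 to 172 in untreated knockout and 195 to 341 FPKM in untreated wild type. The 3 untreated knockout libraries had the lowest pseudogene sums of the 12. In 300-base RefSeq promoter windows searched on both strands, the ETS motif CCGGAAG was found in 36.0% of 75 windows of ribosomal protein genes and 33.8% of 74 windows of mitochondrial ribosomal protein genes, against 8.9% of 32851 windows of all genes. The YY1 motif AAGATGGC was found in 10.7% of the members' windows and 2.7% of all, the E box CACGTG in 10.7% and 7.2%, and TATAAA in 9.3% and 13.6%.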
